A study of Homo sapiens with 8 samples.

Results

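The 9 mucin genes described here were MUC1, MUC2, MUC4, MUC5AC, MUC5B, MUC13, MUC16, MUC20 and MUC21, of 20163 protein-coding genes in the annotation. They were listed by name as mucins of the airway and other epithelia, not by a cut on a measured value. Earlier results of these data were known when they were chosen. The measure was the share of each gene window, that is the gene body with 2000 bp upstream of its start, that was covered by ChIP-seq islands of H3K27me3 or H3K4me3. The cells were PC9, a human lung adenocarcinoma line, treated for 5 days either with DMSO, the vehicle, or with 1 μM GSK126, a small molecule inhibitor of the methyltransferase EZH2. Each mark had 2 libraries with DMSO and 2 with GSK126, 8 in all. All were spiked with D. melanogaster chromatin and an antibody to the fly histone variant H2Av. Each H3K27me3 library and each H3K4me3 library with GSK126 had a standard list of islands, called from equal numbers of human tags in both treatments, and a spike-in list, called after human tags were removed in proportion to the fly tags. For H3K4me3 with DMSO there was 1 list per library, which served both comparisons, so there were 14 lists. All cells were of a single line, so the values describe that line and no other.

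Mucins are large glycoproteins whose serine- and threonine-rich tandem repeats carry dense O-linked glycans. MUC2, MUC5AC and MUC5B are secreted and form gels, whereas MUC1, MUC4, MUC13, MUC16, MUC20 and MUC21 span the membrane of the cell surface. EZH2, the catalytic subunit of the Polycomb repressive complex PRC2, writes H3K27me3, a mark of genes held silent over broad domains, and H3K4me3 marks the starts of genes that are active or poised.

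Across the lists, H3K27me3 islands numbered 16401 to 35901 and covered 127 to 300 Mb, and H3K4me3 islands numbered 17304 to 23875 and covered 34.9 to 85.2 Mb. The H3K4me3 lists of replicate 2 stood apart, with 34.9 to 40.0 Mb covered against 70.8 to 85.2 Mb in replicate 1, so each H3K4me3 value below is given per replicate. Tag numbers cannot be read from the lists, and an island called from fewer tags tends to be shorter. In the H3K27me3 spike-in lists the GSK126 libraries held fewer tags by design, so a loss of mark and a loss of tags cannot be told apart there. As a check of the cell type, an H3K4me3 island in both DMSO replicates lay within 1000 bp of the start of 6 of 8 epithelial marker genes, 2 of 6 lung epithelial markers, 1 of 5 blood markers and 1 of 4 fibroblast and endothelial markers, beside 59.2% of all protein-coding genes. NKX2-1 and SFTPC, a lung transcription factor and a surfactant protein gene, carried both marks at their starts.

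The genes lay in 6 places in GRCh37. MUC2, MUC5AC and MUC5B stood in a row on the plus strand of chromosome 11p15.5, at chr11:1074875-1104416, chr11:1151580-1222364 and chr11:1244296-1283402. On chromosome 3q29, MUC20 at chr3:195447755-195467994 on the plus strand faced MUC4 at chr3:195473636-195538844 on the minus strand. MUC13 lay elsewhere on that chromosome at chr3:124624289-124672663 on the minus strand. The remaining genes were MUC1 at chr1:155158300-155162707 on the minus strand, MUC16 at chr19:8959520-9121066 on the minus strand and MUC21 at chr6:30951495-30957680 on the plus strand. Their windows ranged from 6.41 kb for MUC1 to 164 kb for MUC16.

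The promoters of MUC1 and MUC2 below, the 250 bases that end just before the gene start, read 5′ to 3′ on the strand of the gene in GRCh37, are shown because the genes differed in the marks at their starts with DMSO. MUC1 had both marks within 1000 bp of its start and MUC2 neither, while MUC5AC had only H3K27me3 and MUC5B only H3K4me3. Capitals mark the CpG dinucleotides. The positions are chr1:155162708-155162957 on the minus strand for MUC1 and chr11:1074625-1074874 on the plus strand for MUC2.
MUC1: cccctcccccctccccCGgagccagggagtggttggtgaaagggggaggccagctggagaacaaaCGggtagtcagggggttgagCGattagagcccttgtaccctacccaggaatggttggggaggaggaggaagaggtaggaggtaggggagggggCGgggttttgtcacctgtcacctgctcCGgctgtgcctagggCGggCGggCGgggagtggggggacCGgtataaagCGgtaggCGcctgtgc
MUC2: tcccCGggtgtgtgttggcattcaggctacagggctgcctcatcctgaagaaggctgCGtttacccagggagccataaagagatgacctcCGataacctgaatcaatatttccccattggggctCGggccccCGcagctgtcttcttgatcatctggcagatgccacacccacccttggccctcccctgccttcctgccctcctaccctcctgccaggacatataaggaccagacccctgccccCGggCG

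CpG dinucleotides were sparse in the promoters of the 7 members other than MUC5AC and MUC5B. The ratio of observed to expected CpG ranged from 0.1302 in MUC20 to 0.458 in MUC13, with a median of 0.282 over these 7 genes, against a median of 0.664 over 20140 protein-coding promoters of the same length. They lay between the 10.0th and the 35.0th percentile of those promoters. For MUC13 and MUC16 the promoter was that of the outermost start, 19.1 and 29.05 kb from the start of the canonical transcript. Their GC content ranged from 38.4% in MUC13 to 66.0% in MUC1, against a median of 59.6% over all promoters. The TATA motif TATAAA was found on either strand in the windows of MUC1 and MUC21, 28.6% of the 7 against 10.1% of all promoters. The GC-box motif GGGCGG was found on either strand in MUC1, 14.3%, against 48.8% of all promoters.

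H3K27me3 was present on 7 of the 9 genes in the spike-in lists, beside 6456 of the 20163 protein-coding genes. Of the 7 members, 6 were covered less with GSK126 than with DMSO in both replicates. Of all 6456 protein-coding genes with an island in that comparison 77.4% were, so the members' count was near the share of genes at large. None was covered more in both replicates, as against 0.356% of all genes. The median change of the 7 genes was -22.5 percentage points of the window, and that of all 6456 genes was -15.5. With 2 pairs of libraries, the smallest p that an exact sign-flip test could give was 0.5, so no test was run and each mean change stands with its SD over the replicates.

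**Figure D1:**
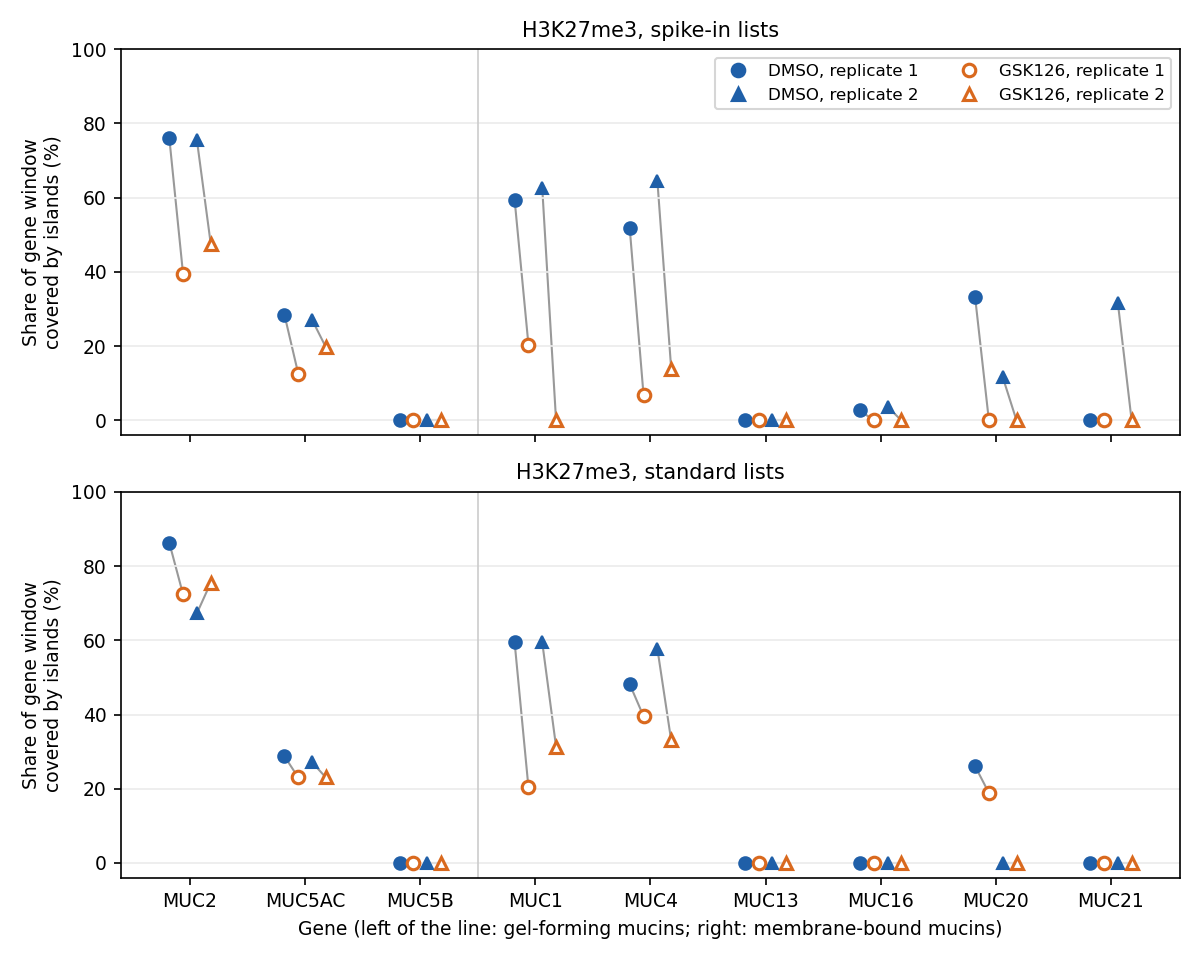
Share of each gene window covered by H3K27me3 islands (y axis, %) for the 9 mucin genes (x axis), in the spike-in lists above and the standard lists below. Each point is 1 library, filled for DMSO and open for GSK126, and lines join the libraries of a replicate. MUC1, MUC2 and MUC4 start between 51.7% and 76.1% in the spike-in lists and MUC5B and MUC13 stay at 0.

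Among the membrane-bound mucins, MUC1, which lines the apical surface of most simple epithelia, had 59.4% and 62.5% of its window covered with DMSO in the spike-in lists and 20.4% and 0% with GSK126. The change was -50.8 ± 16.6 percentage points (SD, n = 2), and the groups did not overlap. Both GSK126 libraries were below both DMSO libraries in 75% of the 6456 genes as well. MUC4, a membrane mucin known to associate with the receptor ERBB2, was at 51.7% and 64.6% with DMSO and at 6.84% and 13.99% with GSK126. Both GSK126 libraries lay far below both DMSO libraries, with a mean change of -47.7 ± 4.04 points (SD, n = 2). MUC20, which is known to bind the receptor MET, was at 33.3% and 11.7% with DMSO and was bare in both GSK126 libraries. The DMSO libraries of MUC20 differed from each other by 21.6 points, about as much as the mean change of -22.5 ± 15.3 points (SD, n = 2).

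MUC16, the carrier of the CA125 epitope, had a small island in the DMSO spike-in lists only, over 2.69% and 3.67% of its long window. It lay between 54.1 and 61.7 kb from the start and wholly within exon sequence. MUC21, also called epiglycanin, had an island over 31.8% of its window in DMSO replicate 2 and none in the other 3 libraries, so its replicates did not share a direction. MUC13, a mucin of the gut surface, was free of H3K27me3 in all 8 lists, and the nearest island was 92.9 to 367 kb from its start.

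Of the gel-forming mucins, MUC2, the chief mucin of the intestine, had the highest share of the whole window covered. It stood at 76.1% and 75.5% with DMSO, and at 39.4% and 47.6% with GSK126, in the spike-in lists, a change of -32.3 ± 6.28 points (SD, n = 2). MUC5AC, a mucin of goblet cells in the airway surface and the stomach, was at 28.5% and 27.2% with DMSO and at 12.6% and 19.7% with GSK126. For both genes the DMSO libraries were within 1.37 points of each other and above both GSK126 libraries, an order found in 75% of the 6456 genes. MUC5B, the other main gel-forming mucin of the airway, had no H3K27me3 island in any of the 8 lists.

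A change of at least 10 points in both replicates was met by MUC1, MUC2, MUC4 and MUC20, 4 genes, beside 49.0% of all genes. The MUC5AC window is mostly an assembly gap, and over its unique bases, described with the map of 11p15.5, its mean change was -37.0 points. Summed over the 9 windows, 95.2 and 102 kb were covered with DMSO and 27.5 and 38.8 kb with GSK126, a log2 ratio of -1.59 ± 0.28 (SD, n = 2). Over all protein-coding genes the log2 ratio was -1.06 ± 0.02 (SD, n = 2).

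In the standard lists, where both treatments had the same number of human tags, the differences were smaller and fewer genes were lower. H3K27me3 was present on 5 members, beside 6133 of the 20163 protein-coding genes. MUC1, MUC4 and MUC5AC, 3 genes, were covered less in both replicates, beside 46.8% of those 6133 genes. No member was covered more in both, as against 5.64% of all genes. The median change was -4.95 points for the 5 members and -4.14 points for all genes.

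MUC1 was at 59.4% in both DMSO standard lists and at 20.4% and 31.3% with GSK126, a change of -33.6 ± 7.74 points (SD, n = 2). Over the whole window no other member was lower by at least 10 points in both replicates of the standard lists, a size reached by 16.5% of all genes. MUC4 was at 48.2% and 57.7% with DMSO and at 39.5% and 33.0% with GSK126, and its change of -16.7 ± 11.4 points was mostly in replicate 2. The MUC5AC shares, 28.8% and 27.2% with DMSO and 23.0% in both GSK126 libraries, differed by -4.95 ± 1.17 points, and its mean change over unique bases was -15.1 points. In each of these 3 genes the treatments did not overlap. With no pairing of the libraries, 36.5% of the 6133 genes were lower in these lists.

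MUC2 behaved differently between the replicates in the standard lists. It stood at 86.3% and 67.3% with DMSO and at 72.3% and 75.5% with GSK126, so it was lower in replicate 1 and higher in replicate 2. MUC20 had islands in replicate 1 alone, over 26.1% with DMSO and 18.9% with GSK126. The other 4 genes had no H3K27me3 island in the standard lists.

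Summed over the members, 90.2 and 83.6 kb were covered with DMSO and 71.7 and 64.8 kb with GSK126 in the standard lists. The log2 ratio was -0.35 ± 0.03 (SD, n = 2), and that of all protein-coding genes was -0.31 ± 0.14 (SD, n = 2). The members as a sum were therefore close to the genes at large at equal tag number.

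**Figure D2:**
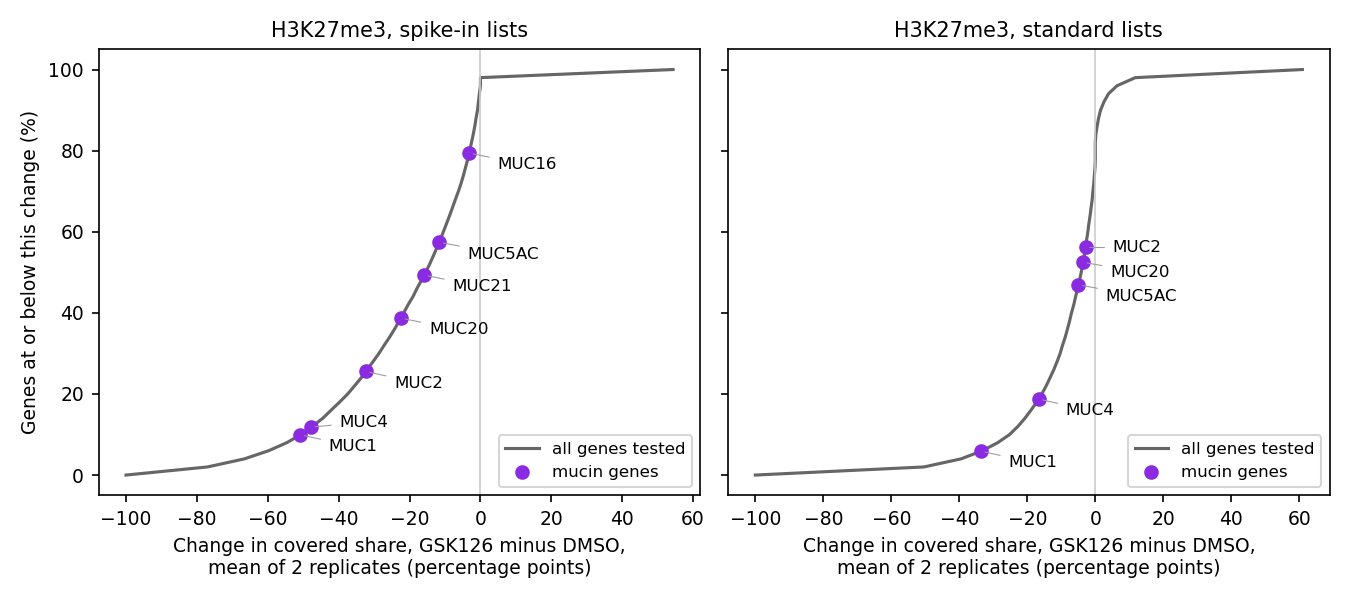
Change in the covered share of H3K27me3, GSK126 minus DMSO, as the mean of 2 replicates in percentage points (x axis) against the percent of genes at or below that change (y axis). The line is all protein-coding genes tested, drawn at every 2 percentiles, and the points are the mucin genes with an island. MUC1 and MUC4 lie lowest in both panels and MUC16 nearest to 0 in the spike-in panel.

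The members were spread along the range of all genes. In the spike-in lists 9.94% of the genes tested had a change as low as that of MUC1 or lower, 11.9% as low as MUC4 and 25.7% as low as MUC2. MUC20 and MUC21 stood at 38.7% and 49.3%, MUC5AC at 57.5% and MUC16 at 79.4%, the place of MUC5AC being that of its whole window with the assembly gap. In the standard lists MUC1 stood at 5.94% and MUC4 at 18.9%, and MUC5AC, MUC20 and MUC2 lay between 47.1% and 56.1%. MUC1 and MUC4 thus had the lowest values among the members in both normalizations, within the range of many other genes.

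The island score gave a view that does not rest on length alone. The deposited score sums over the windows of an island how unlikely their tag counts are, and in the standard lists the lowest score of a list was equal between the treatments of a replicate to within 0.000659%, so scores were compared there. For MUC1 the summed H3K27me3 score was 260 and 304 with DMSO and 133 and 125 with GSK126, log2 ratios of -0.97 and -1.29. For MUC4 it was 1085 and 1422 with DMSO and 687 and 673 with GSK126, log2 ratios of -0.66 and -1.08. Both genes had lower scores in both replicates.

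The gel-forming mucins did not follow them. The MUC2 score was 1378 and 1651 with DMSO and 1410 and 2315 with GSK126, log2 ratios of 0.03 and 0.49. The MUC5AC score was 847 and 1009 with DMSO and 750 and 1110 with GSK126, log2 ratios of -0.18 and 0.14. Over the 4114 genes with an island in all 4 lists the median log2 ratio was 0.02 in replicate 1 and -0.11 in replicate 2, with the 10th and 90th percentiles at -0.88 and 0.84 and at -1.60 and 1.28. Among genes of like DMSO score, within 1.5-fold, the medians for MUC1 were -0.22 and -0.66 and those for MUC4 were -0.03 and 0.0015. MUC1 and MUC4 were below those medians in both replicates. No value of the 4 genes lay outside the 10th to 90th percentile range of its genes of like score. Against all genes, MUC1 in replicate 1 was below the 10th percentile. With scores clipped to the window in proportion to length, MUC1 stood at -1.28 and -1.64, below the 10th percentiles of all genes, -0.82 and -1.49. The clipped ratios of MUC2, MUC4 and MUC5AC lay within the 10th to 90th percentile range of all genes.

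The map of 11p15.5 shows how the mark ended between neighbours. With DMSO, H3K27me3 islands covered the start of MUC6, most of MUC2, an intergenic stretch past the end of MUC2, and both ends of MUC5AC. In the GSK126 spike-in lists no island lay at MUC6, and in replicate 1 none lay at the 5′ end of MUC5AC. In all 8 lists the islands between MUC2 and MUC5AC fell within 8.59 to 21.6 kb of the end of MUC2. In all 8 lists the last island ended 20.5 to 22.5 kb before the start of MUC5B, and the next began 80.2 to 82.6 kb past its end. The order of the genes was therefore marked, marked and unmarked from MUC2 to MUC5B, with DMSO and with GSK126 alike.

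**Figure D3:**
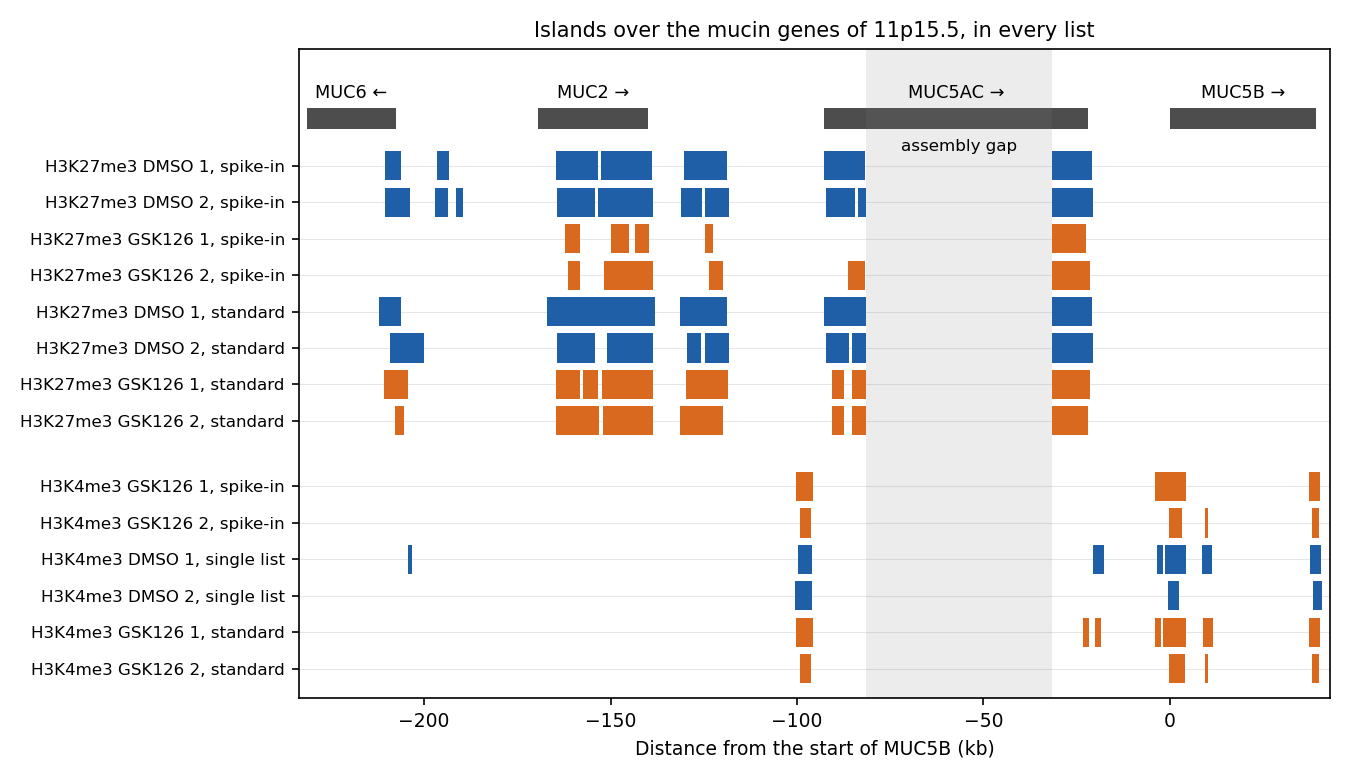
Islands over the 11p15.5 mucin genes in every list, with the distance from the start of MUC5B in kb on the x axis, 1 row per list, DMSO in blue and GSK126 in orange. Grey bars are genes with an arrow for their direction, and the shaded part is a gap of 50.0 kb in the assembly within MUC5AC. H3K27me3 lies over MUC2 and MUC5AC in all 8 lists and over the start of MUC6 in all but the GSK126 spike-in lists, and H3K4me3 lies over MUC5B in all 6.

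In MUC2 the islands did not reach the start: with DMSO they began 2.33 to 4.93 kb inside the gene and ran to 30.5 to 31.3 kb, past the 3′ end. With GSK126 in the spike-in lists the islands were shorter and lay between 7.13 and 29.7 kb in replicate 1 and between 7.93 and 30.9 kb in replicate 2. Of the covered bases of MUC2 with DMSO, 25.5% to 27.1% were exon and the rest intron, and 23.3% of the window was exon. The highest-scoring part was the 3′ part of the gene, where the island from 16.7 to 30.5 kb scored 1246 and its 5′ neighbour scored 393 in DMSO replicate 1 of the spike-in lists.

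MUC5AC could be measured at its ends only. Positions chr11:1162760-1212759, 68.7% of its window, are unsequenced in GRCh37, so its covered share could not exceed the remainder. Islands lay against both edges of that gap, from 0.02 to 11.02 kb and from 61.0 to 71.8 kb of the start in DMSO replicate 1 of the spike-in lists. Counted over the bases where a 50-base tag is unique in the genome, MUC5AC was covered over 90.4% and 86.7% with DMSO and over 40.8% and 62.2% with GSK126 in the spike-in lists. In the standard lists it was covered over 90.9% and 85.9% with DMSO and over 73.3% in both GSK126 libraries. On that scale MUC5AC was nearly filled with H3K27me3 with DMSO, and the treatments again did not overlap.

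H3K4me3 was found on 5 of the 9 genes in the spike-in comparison, beside 14505 of the 20163 protein-coding genes. MUC4, 1 gene, was covered less in both replicates, beside 35.0% of 14505 genes, and none was covered more, beside 7.95%. In the standard lists, with 6 members beside 14565 of the 20163 genes, MUC4 was again lower in both, beside 35.5% of those 14565 genes. MUC5B, 1 gene, was higher in both there, beside 6.81%. The MUC5B change of 3.28 points turned to -4.00 within 2500 bp of the start and to -0.49 with islands of at least 2 times the lowest score. The median change was -1.45 points for the members and -0.56 points for all genes in the spike-in lists, and -1.28 and -0.64 points in the standard lists. No member differed by at least 10 points in both replicates, a decrease that 1.45% of all genes had in the spike-in and 1.43% in the standard lists.

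**Figure D4:**
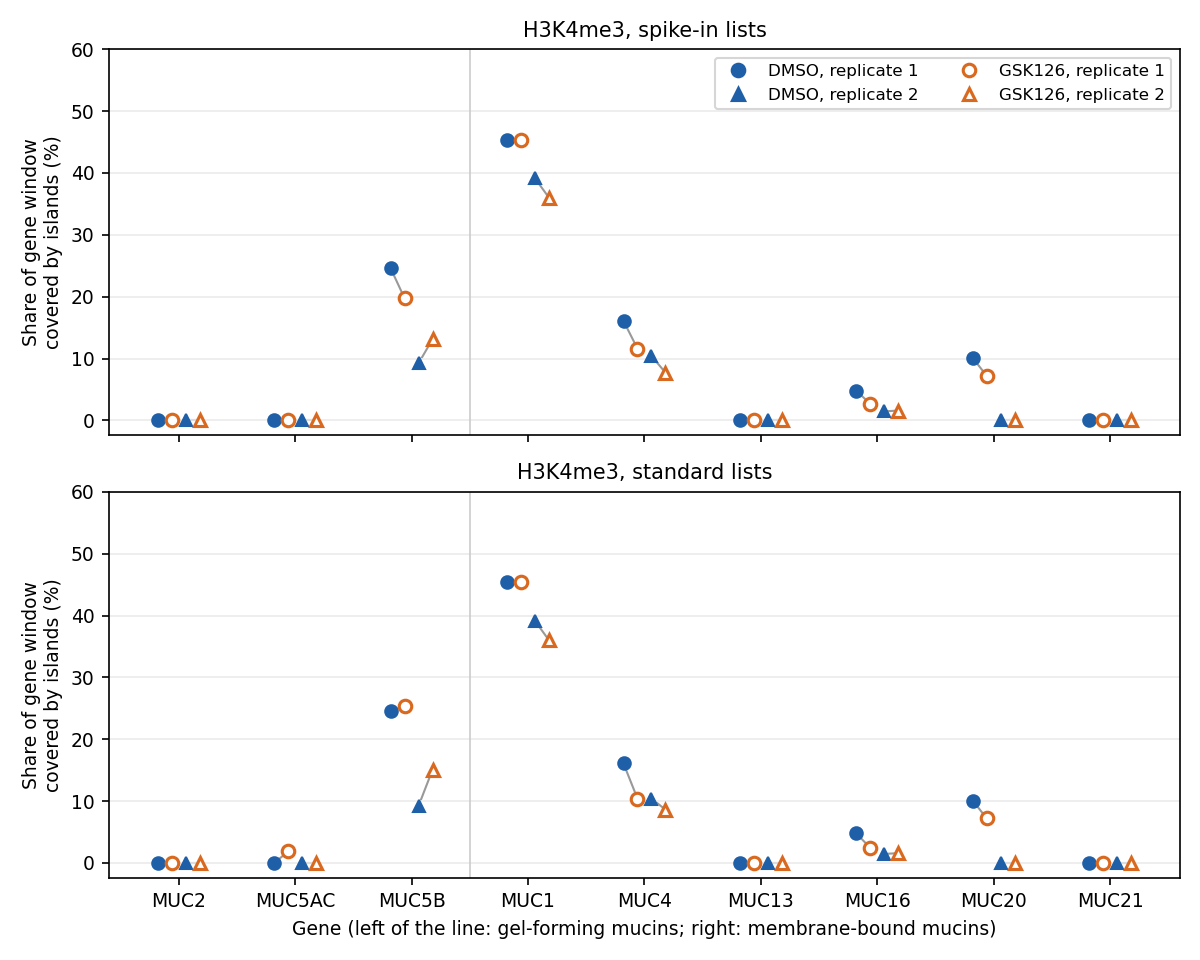
Share of each gene window covered by H3K4me3 islands (y axis, %) for the 9 mucin genes (x axis), with symbols as in the plot of H3K27me3. The DMSO points are the same in both panels, because 1 list per DMSO library served both. The DMSO replicates differ by more than the treatments do in MUC5B and MUC20, and MUC2, MUC13 and MUC21 are at 0.

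MUC1 had the highest share, 45.4% and 39.1% with DMSO and 45.4% and 36.0% with GSK126 in both normalizations, with an island over its start in all 6 lists. MUC4 was at 16.1% and 10.4% with DMSO, at 11.6% and 7.74% with GSK126 in the spike-in lists and at 10.4% and 8.63% in the standard lists. Within each replicate MUC4 was lower with GSK126, but the groups overlapped because the DMSO replicates were 5.67 points apart. MUC16 was at 4.77% and 1.47% with DMSO, at 2.69% and 1.59% in the spike-in lists and at 2.45% and 1.59% in the standard lists, so its replicates took opposite directions.

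MUC5B was at 24.6% and 9.25% with DMSO, at 19.7% and 13.1% with GSK126 in the spike-in lists and at 25.3% and 15.1% in the standard lists. The direction in replicate 1 thus differed between the normalizations, and the 15.3 points between the DMSO replicates exceeded every difference between the treatments. Its summed score was 2040 and 438 with DMSO and 2074 and 660 with GSK126 in the standard lists, log2 ratios of 0.02 and 0.59. In replicate 2, 97.4% of the 13456 genes compared had a lower ratio than MUC5B, against 40.5% in replicate 1. The scores of MUC1, MUC4 and MUC16 had log2 ratios of -0.25, -0.20 and -0.14 in replicate 1 and 0.05, 0.04 and -0.05 in replicate 2, beside medians of 0.07 and -0.09 over all genes. With scores clipped to the window, MUC4 turned to 0.18 in replicate 1 and MUC1 stood at 0.35 in replicate 2.

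MUC20 had H3K4me3 in replicate 1 alone, at 10.1% with DMSO and 7.19% with GSK126. MUC5AC had a single H3K4me3 island in its window, over 1.87% near the 3′ end in GSK126 replicate 1 of the standard lists. A further island lay upstream of the MUC5AC window in all 6 lists, its near end 2.98 to 3.58 kb and its far end 6.38 to 7.78 kb before the gene start. MUC2, MUC13 and MUC21 had no H3K4me3 island in any list, and the nearest to the start of MUC13 was 51.7 to 52.5 kb away.

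At the gene starts the members fell into 4 states with DMSO in the standard lists, counted where both replicates had an island within 1000 bp. MUC1 had both marks, beside 4.38% of all protein-coding genes. H3K27me3 was present at MUC1 and MUC5AC, 2 genes, beside 16.3% of all genes, and H3K4me3 at MUC1, MUC4, MUC5B and MUC16, 4 genes, beside 59.2%. MUC2, MUC13, MUC20 and MUC21 had neither in both replicates, beside 28.9% of all genes. With GSK126 the same 4 genes kept H3K4me3, beside 59.0% of all genes. H3K27me3 was then counted at MUC1, beside 13.3% of all genes, but not at MUC5AC, whose islands began 2.02 kb into the gene.

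In MUC1 the marks overlapped upstream of the gene start, and with DMSO no H3K27me3 island lay over the promoter shown above. With DMSO in the standard lists the H3K4me3 island ran from -4.49 to 0.91 kb of the start in replicate 1 and from -3.49 to 0.51 kb in replicate 2. H3K27me3 islands lay on either side of the start in both replicates. The upstream island ran from -5.49 and -4.89 kb to -0.89 kb and overlapped the H3K4me3 island, and the other began at 1.71 kb. Both marks covered the same 1.11 kb of the window in both DMSO replicates and 1.31 and 1.91 kb with GSK126. With DMSO the overlap ran on past the upstream edge of the window. The islands reached beyond the gene, over TRIM46 past the 3′ end and over THBS3 upstream, so they are shared with those neighbours. The 3′ island, absent with GSK126 from both spike-in lists and from replicate 1 of the standard lists, held most of the difference.

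In MUC4 the marks lay mostly apart, with 3165 and 4200 bp in common with DMSO and 1800 and 400 bp with GSK126 in the standard lists. H3K4me3 stood at the start, from -3.96 to 3.44 kb in DMSO replicate 1, with smaller islands 5.24 kb and 62.8 kb into the gene. The main H3K27me3 island lay deep inside, from 37.4 to 59.2 kb and from 36.4 to 60.6 kb with DMSO in the spike-in lists. With GSK126 it was reduced to 47.0 to 51.6 kb in replicate 1 and to pieces between 41.2 and 51.6 kb in replicate 2. A further island at the 3′ end, 62.8 to 67.6 kb from the start with the same edges in both DMSO libraries, was missing with GSK126 from the spike-in lists. H3K27me3 also lay over the start with DMSO in the spike-in lists, from -0.76 to 3.84 kb and from -3.76 to 0.44 kb. In the standard lists an island over the start was found in DMSO replicate 2 alone. No GSK126 list had an H3K27me3 island within 1000 bp of the start. Within 2500 bp of the start the mean H3K27me3 change of MUC4 was -66.6 points in the spike-in lists. In the standard lists it was -40.0 points, from replicate 2 alone, since the nearest island of replicate 1 lay 7.44 kb away in both treatments.

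**Figure D5:**
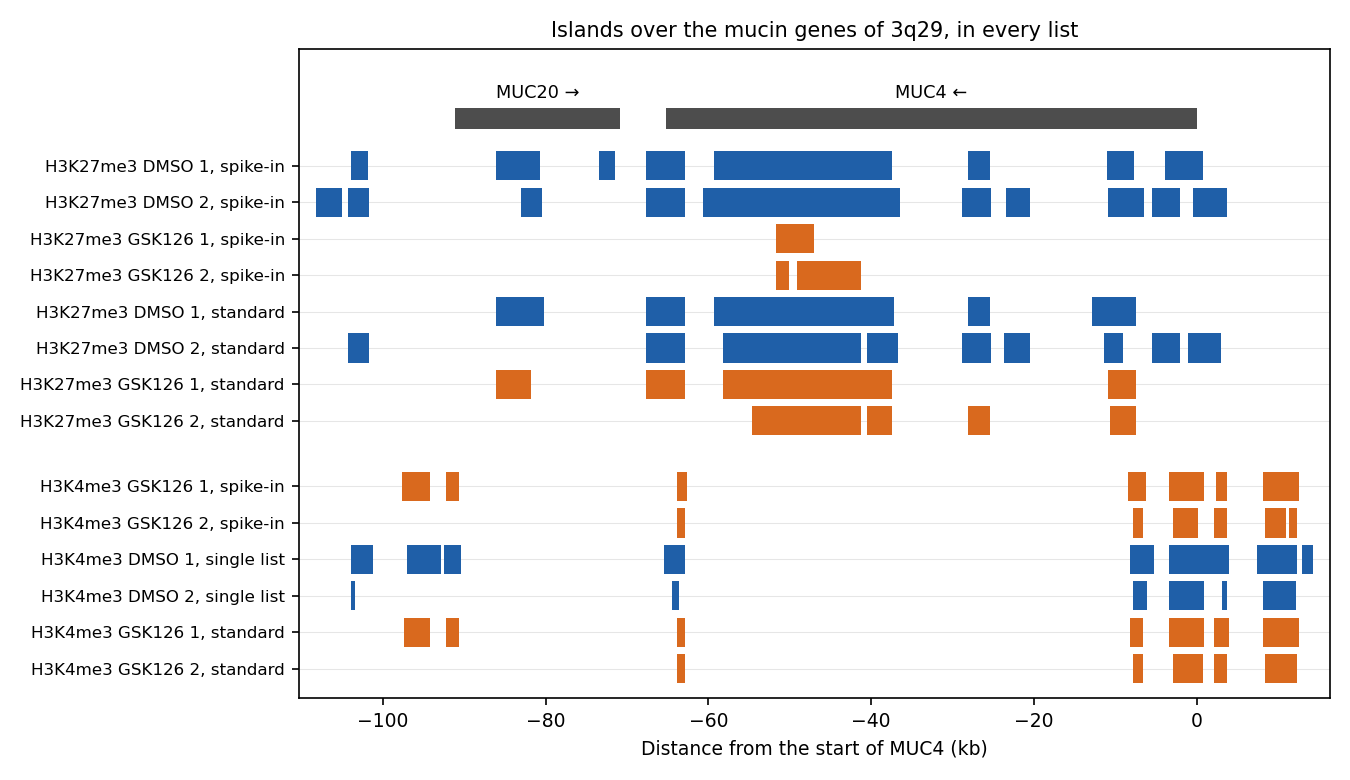
Islands over MUC20 and MUC4 on 3q29 in every list, with the distance from the start of MUC4 in kb on the x axis, 1 row per list, DMSO in blue and GSK126 in orange. Grey bars are the genes with an arrow for their direction. In the GSK126 spike-in lists H3K27me3 remains only over the middle of MUC4, and H3K4me3 stands at the MUC4 start in all 6 lists.

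MUC16 needed a choice of start. Its H3K4me3 island lay at the outermost start, position 9121066, from -1.33 to 3.47 kb in DMSO replicate 1, and scored 3079 there. The canonical transcript begins 29.05 kb further inside the gene, where no H3K4me3 island was found in any list. MUC13 has a canonical start 19.1 kb inside the gene, and its window was bare of both marks.

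Repeated sequence in the gene windows also limits what short tags can show. Tags were 50 bases long and kept only where they mapped uniquely, and the share of 50-base sequences that are not unique in GRCh37 ranged from 3.03% in MUC2 to 22.0% in MUC20, with 16.1% in MUC4 and 14.2% in MUC5B. The most repeated 50-base sequences of MUC1, MUC4 and MUC20, read 5′ to 3′ on the strand of the gene, are shown because H3K27me3 islands had edges close to them. None of their bases is set in capitals, since the whole run is the repeat.
MUC1 repeat: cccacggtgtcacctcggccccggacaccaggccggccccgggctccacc
MUC4 repeat: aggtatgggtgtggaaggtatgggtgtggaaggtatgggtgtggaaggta
MUC20 repeat: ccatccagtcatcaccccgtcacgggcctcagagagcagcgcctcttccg

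The MUC1 sequence occurred 10 times in GRCh37, all within chr1:155161074-155161729, which is 978 to 1633 bp from the gene start, and the 3′ H3K27me3 island with DMSO began at 1707 bp in every DMSO list. The MUC4 sequence occurred 36 times within chr3:195502254-195504763, a run that ended 36590 bp from the start. Its copy of lowest coordinate lay outside the annotated exons, and the other copies were not checked against exons. An H3K27me3 island had its edge beside this run, at 36444 to 37444 bp, in the 4 DMSO lists. In replicate 2 of the standard lists this was a separate island of 3.8 kb, and the main island began at 41244 bp. The MUC20 sequence occurred 17 times in the genome, 11 of them within chr3:195452023-195452642, at 4268 to 4887 bp. The copy of lowest coordinate there lay in an exon, and the others were not checked. The island of DMSO replicate 1 began at 5046 bp. In MUC4, 6.92% and 8.09% of the 50-base sequences inside the DMSO islands of the spike-in lists were not unique, and 26.1% and 30.9% of those outside. Counted over unique bases alone, MUC4 stood at 57.4% and 70.8% with DMSO and at 8.08% and 16.4% with GSK126, so the treatments differed as before.

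Other mucin genes, from a list of 9, were marked by H3K27me3 in the spike-in lists in 5 cases, beside 6456 of the 20163 protein-coding genes. Of these 5, 4 were covered less in both replicates, beside 77.4% of all genes. MUC17, a membrane mucin of the intestine, was at 90.2% and 98.0% with DMSO and at 64.2% and 75.0% with GSK126. MUC6, a gel-forming mucin of gastric glands, was at 16.99% and 18.99% with DMSO and bare with GSK126. MUC12 went from 77.8% in both DMSO libraries to 61.8% and 67.7%, and MUC22, the neighbour of MUC21, from 20.8% and 17.1% to 0% and 12.6%. In the standard lists 3 of 6 were lower in both replicates, beside 46.8% of all genes, and none of the 9 had H3K4me3 in any list.

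Genes of mucus and goblet cells, 20 in the list, had H3K27me3 in 10 cases in the spike-in lists, beside 6456 of the 20163 protein-coding genes. Of these 10, 9 were covered less in both replicates and none more, beside 77.4% and 0.356% of all genes. TFF3, a trefoil peptide secreted with mucins, was at 61.7% and 86.1% with DMSO and bare with GSK126, but in the standard lists at 70.1% in both DMSO libraries and at 69.7% and 45.7% with GSK126. BPIFA1, a secreted airway protein, was wholly covered with DMSO and covered over 4.29% and 51.5% with GSK126 in the spike-in lists, and was wholly covered in all 4 standard lists. KLK12 and BPIFB1, a secreted protease and another airway protein, were the other genes with large changes, from 86.7% and 100% to 0% and 67.0% and from 58.8% and 94.3% to 21.9% and 30.2%. In the standard lists 5 of 10 were lower in both replicates and none higher, beside 46.8% and 5.64% of all genes. In H3K4me3, 3 of 8 were lower and 1 was higher in both replicates of the spike-in comparison, beside 35.0% and 7.95% of all genes. TFF1 and TFF2, trefoil peptides like TFF3, went from 35.2% and 9.59% and from 40.7% and 9.03% with DMSO to none with GSK126 in both normalizations. SPDEF, a transcription factor of goblet cells, had H3K4me3 over 16.6% and 9.74% with DMSO and over 19.5% and 12.7% with GSK126 in the spike-in comparison, and in the standard lists its change was 0 in replicate 1.

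Of 21 enzymes that build O-glycans on mucins, 3 had H3K27me3 in the spike-in lists and 18 had H3K4me3, beside 6456 and 14505 of the 20163 protein-coding genes. An H3K4me3 island lay at the start of 13 in both DMSO replicates, beside 59.2% of all genes. B3GNT6, which makes the core 3 structure, had H3K27me3 over 20.9% in both DMSO libraries and none with GSK126, and GALNT14 over 6.19% and 4.08% with DMSO and over 1.13% and 0% with GSK126. None of the enzymes was lower in H3K27me3 in both replicates of the standard lists. In H3K4me3, 9 of 18 were lower and 1, FUT2, was higher in both replicates of the spike-in comparison, beside the 35.0% and 7.95% of all genes. For the standard lists these numbers were 10 and 0, and FUT2 was lower in replicate 1.

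The genes most like each member in covered share over the 14 lists, on other chromosomes, were found by the mean absolute difference. For MUC2 this was PROKR2, at 1.85 points, followed by ELN and PGBD5. For MUC5AC it was MYLK at 1.53 points, followed by OTUD7A and SCART1, and for MUC4 it was ODAD1 at 3.81 points, followed by ALG1 and PRELP. The nearest to MUC1 was RCOR2 at 7.39 points, with CSAG1 and IL11 next. MUC16 was nearest to FXR1 at 0.306 points and MUC20 to MAP1LC3B2 at 3.25 points. Among the members themselves, the nearest to MUC1 and to MUC2 was MUC4, at 18.1 and 20.7 points. The nearest to MUC4 was MUC5AC at 15.1 points, to MUC5AC MUC20 at 9.45 points, to MUC20 MUC16 at 7.34 points and to MUC16 MUC13 at 1.49 points.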

How the data were processed

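ChIP-seq of H3K27me3 and H3K4me3 was measured in 8 PC9 libraries, 2 for each mark and treatment, and groups were taken from the sample labels. Per the study's methods, the authors mapped single-end tags of 50 nt with BWA to hg19, which is GRCh37. They removed duplicates, kept tags with a mapping quality over 25, and removed human tags at random for the standard or the spike-in normalization. Islands were called per library, without pooling, with SICER against a random background. The E-value was 1, and the gap was 600 bp in H3K27me3 and 200 bp in H3K4me3 calls. The methods state no SICER window size, and the island edges in the deposited lists fall on a grid of 200 bp. The deposited files give island positions and an island score, which is no tag count, so depth per library is not known from them. A gene without an island is not shown to lack the mark.

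Genes came from the GENCODE release 44 annotation mapped to GRCh37. Covered shares, summed scores and unique 50-base sequences (exact matches on both strands) were computed with Python 3.11.15, NumPy 2.4.6, pandas 2.3.3 and Numba 0.67.0, and plotted with Matplotlib 3.10.9. The coverage and call functions were checked on simulated islands with known changes. A gene entered a comparison where any of its lists had an island in the window, and was counted where the share was lower, or higher, with GSK126 in both replicates. GSK126 and DMSO were compared within a replicate as numbered in the study's supplementary listing of libraries. The study calls the replicates biological, and the sample labels do not say how they were raised. No test was run, since the exact permutation of signs over 2 pairs has a smallest p of 0.5. The 9 members and the gene lists were chosen with earlier results of these data known. From each of the other lists, up to 4 genes with the largest mean change in the same direction in both replicates are named, and TFF1, TFF2, SPDEF, FUT2, NKX2-1 and SFTPC were named after their values were seen. Likeness was computed for members with islands in at least 7 lists. Alternatives covered the window, the score and length of islands, the size of a change, the replicates, their pairing, the DMSO list, whole islands and the start site. Those on unique bases, the canonical start and clipped scores were chosen after seeing the data. The promoter windows of MUC5AC and MUC5B are not reported here.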

Additional observations from a re-analysis of the deposited data

How the results depend on the processing

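No test underlies these results, so alternatives are compared by direction and size. With 2500 bp to either side of the start in place of the gene window, fewer members were lower in H3K27me3 in both replicates. They were 3 in place of 6 in the spike-in lists, beside 60% in place of 77.4% of all genes. In the standard lists they were 1 in place of 3, beside 27% in place of 46.8% of all genes. The log2 ratio of summed length in the standard lists was -1.35 in place of -0.35. In the spike-in lists that window left no covered length in GSK126 replicate 2, so its log2 ratio could not be formed. A minimum change of 10 points left 1 gene in the standard H3K27me3 lists, beside 16.5% of all genes. It left 0 genes in the spike-in and standard H3K4me3 comparisons, beside 1.45% and 1.43% of all genes. Islands of at least 2 times the lowest score gave 0 for H3K4me3 in the standard lists and a log2 ratio of -0.49 for standard H3K27me3, and whole islands gave -0.42. With no replicate block, that is with no pairing of the libraries, 0 genes were lower in H3K4me3 in either comparison. The H3K27me3 counts stayed at 6 and 3 in the spike-in and standard lists, beside 75% and 36.5% of all genes. Within 200 bp of the start, 0 members had H3K27me3 in both DMSO replicates of the standard lists. In the DMSO spike-in lists MUC4 had an H3K27me3 island over its start in both replicates. With one replicate of both groups left out in turn, the lower counts ranged over 6 to 7 and 3 to 5 for H3K27me3 in the spike-in and standard lists, the 5 being without replicate 2. For H3K4me3 they were 2 and 2 without replicate 1 and 4 and 3 without replicate 2, against 1 in both lists with the pair of replicates. The H3K4me3 change of MUC5B in the standard lists turned from 3.28 points to -4.00 within 2500 bp of the start and to -0.49 with the higher score minimum. The median log2 score ratio was -0.44 for H3K27me3 and -0.37 with clipped scores, and -0.09 for H3K4me3 but 0.067 with clipped scores, and it ranged from -0.17 to 0.046 when a replicate was left out. For the counts, ratios and medians, 47 alternatives stayed close to the reported value, 18 moved it and 2 turned its sign. For the changes of single genes these numbers were 141, 25 and 2. The causes were not tested.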

Other observations

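The limits of the mucin values lie in the lists. Presence or absence of an island is a threshold, so a gene at 0 can hold signal under it, and small islands such as those of MUC16 and MUC21 were seen in DMSO spike-in lists alone. For MUC5AC, 68.7% of the window is an assembly gap. For MUC20 and MUC4, 22.0% and 16.1% of the 50-base sequences are not unique, and their part in the covered shares was not tested beyond the count over unique bases. Each group had 2 libraries. No RNA was measured, so the values say nothing of the amount of any mucin.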
